A study of Mus musculus with 6 samples.

Results

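The 10 genes described here are markers of Kupffer cells, the resident macrophages of the liver: *Clec4f*, *Vsig4*, *Timd4*, *Marco*, *Cd5l*, *C1qa*, *C1qb*, *C1qc*, *Adgre1* and *Cd163*. They were taken by name from a table of 24346 genes, and all 10 were found. Their level was measured by RNA-seq of whole liver in 6 male C57/BL6 mice aged 8 weeks, each killed 24 hours after an injection of CCl4 at 0.6 μl per g body weight. CCl4 is a toxin that hepatocytes turn into a reactive radical, which kills cells around the central veins. There were 3 *med23* f/f controls, in which the Mediator subunit gene *Med23* is floxed and which the labels call wild type, and 3 *med23* Δli mice, which also carry *Albumin*-cre and which the labels call *med23* ko. All 6 mice received CCl4, and no liver without CCl4 was analysed here. *Albumin*-cre acts in hepatocytes, so Kupffer cells keep *Med23* in both groups, and the comparison asks where the markers of these macrophages stand in an injured liver whose hepatocytes are meant to lack it.

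Kupffer cells sit inside the liver sinusoids, where they take bacteria, worn red cells and cell debris out of the blood. They are seeded before birth and renew themselves locally. Their identity depends on signals from the neighbouring hepatocytes, stellate cells and sinusoidal endothelial cells, among them ligands of the CSF1 receptor, Notch ligands and BMP ligands. After toxic injury, blood monocytes enter the liver and become macrophages that share only some of these markers.

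Values are FPKM, fragments scaled by the length of the transcript and by the size of the library, so levels of different genes can be set side by side. FPKM keeps no read counts and the depth behind each value is unknown, which leaves the spread among the 3 replicates as the error. The 6 libraries summed to between 591848 and 651193 FPKM, and the 10 most abundant genes held 17.1% to 20.3% of the sum in the controls and 11.9% to 13.7% in the other group. *Med23* itself was at 3.42, 2.97 and 4.14 FPKM in the controls and at 3.40, 3.40 and 2.91 FPKM in the livers with the *med23* Δli label (log2 fold change −0.11, adjusted p = 0.685, limma). Its level in whole liver did not tell the groups apart, so the livers with that label are called Δli-labelled throughout, and each direction rests on those labels. *Alb*, which encodes albumin, was between 12624 and 22376 FPKM in all 6 libraries, and the Kupffer cell markers were above 0 in every library. Control replicate 1 stood apart from the other controls: it held the lowest control value in 9 of the 10 markers. Results that rest on it are given with and without it.

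Of the 10 Kupffer cell markers, 8 had a negative log2 fold change in the Δli-labelled livers and 2 a positive one. Over the 11956 genes tested, 6240 had a positive one. *C1qa* was the only marker whose fall passed the test. The chains of complement C1q stood at 61.2% to 66.6% of the control mean, whereas *Cd5l*, *Timd4* and *Adgre1* stood at 95.3% to 108%. The groups were compared with limma on log2(FPKM + 0.1) for 11956 genes whose mean reached 0.5 FPKM, with adjusted p over all of them, and a gene was called at an adjusted p under 0.05. All 10 markers passed this filter. Of the markers, 1 was called lower and 0 were called higher, beside 9.48% and 11.6% of all genes tested. Called with a change over 2-fold in either direction were 0 of the 10, beside 7.9% of all genes tested at the same adjusted p and fold. At an unadjusted p under 0.05, 4 markers were lower (*C1qa*, *C1qc*, *Clec4f* and *Vsig4*) and 0 were higher, beside 17.1% and 20.5% of all genes tested. Groups did not overlap in 2 of the 10 markers, *C1qa* and *Clec4f*, both lower in the Δli-labelled livers, beside 20.4% of all genes tested. By adjusted calls and by overlap the markers thus lay near the rest of the genes. Their median log2 fold change was −0.41, beside 0.02 over all genes tested. In RNA from whole liver, fewer Kupffer cells and less RNA per Kupffer cell cannot be told apart. Exact permutation tests of 3 livers against 3 cannot give a p below 0.1.

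**Figure D1:**
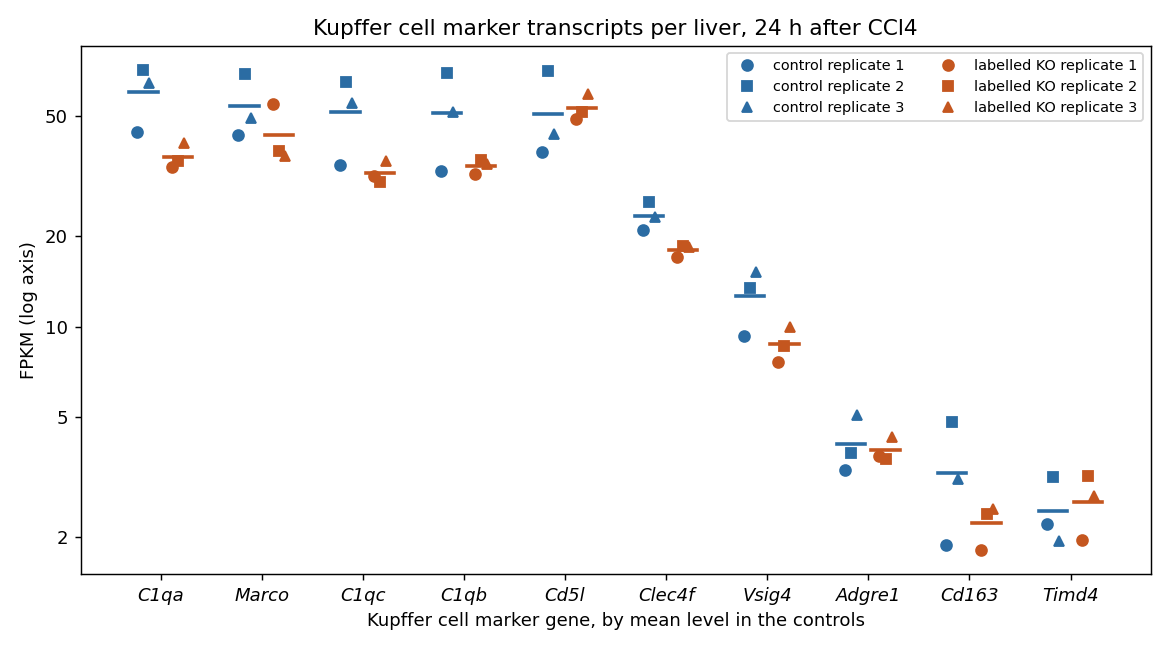
FPKM of each Kupffer cell marker (log axis) in the 3 control livers and the 3 Δli-labelled livers (labelled KO in the plots), with 1 point per liver, shaped by replicate number, and a bar at the group mean. The points of *C1qa* and *Clec4f* do not overlap between the groups, and control replicate 1 is the lowest control in every marker except *Timd4*.

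C1q starts the classical complement pathway and also coats dying cells for uptake, and in the liver macrophages are its main source. Its A, B and C chains assemble into 1 molecule from 3 separate genes. In mm10 these genes lie side by side on the minus strand of chromosome 4, in the order *C1qb*, *C1qc*, *C1qa*, from 136880129 to 136898803, a stretch of 18675 bases with gaps of 3616 and 2851 bases between them (GENCODE release M 21). Each has 3 exons.

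*C1qa* (chr4:136895917-136898803) was at 44.3, 71.3 and 64.7 FPKM in the controls and at 33.9, 35.4 and 40.9 FPKM in the Δli-labelled livers. All 3 of these livers were below the lowest control. Mean levels were 60.1 ± 14.1 and 36.8 ± 3.67 FPKM (SD, n = 3 each), which is a log2 fold change of −0.68 (standard error 0.19, 95% interval −1.13 to −0.24) with an adjusted p of 0.0425 from limma, and the exact two-sided permutation test gave its smallest possible p of 0.1. The call was a narrow one: over the alternatives the adjusted p ran from 0.0162 to 0.140, and *C1qa* was no longer called when any library but control replicate 1 was left out (adjusted p 0.0718 to 0.140).

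*C1qc* (chr4:136889804-136893065) was at 34.4, 65.2 and 55.4 FPKM in the controls and at 31.6, 30.4 and 35.4 FPKM in the other group. Only control replicate 1 lay among the Δli-labelled livers. The means were 51.7 ± 15.7 and 32.4 ± 2.64 FPKM, with a log2 fold change of −0.62 (standard error 0.23, 95% interval −1.15 to −0.09) that did not pass after adjustment (adjusted p = 0.0891, limma; exact permutation p = 0.2). *C1qb* (chr4:136880129-136886187) was at 32.8, 69.4 and 51.9 FPKM in the controls and at 32.2, 35.7 and 34.8 FPKM in the Δli-labelled livers. Here too the overlap came from control replicate 1, whose 32.8 FPKM lay just above the lowest liver of the other group. The means of *C1qb* were 51.4 ± 18.3 and 34.2 ± 1.80 FPKM, with a log2 fold change of −0.52 (standard error 0.25, 95% interval −1.10 to 0.06; adjusted p = 0.168, limma; exact permutation p = 0.3), and of −0.27 without control replicate 2.

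The chains kept near-even proportions to each other. *C1qb* was 0.741 to 0.973 times *C1qa* in the controls and 0.852 to 1.01 times in the Δli-labelled livers. *C1qc* was 0.776 to 0.914 times *C1qa* in the controls and 0.857 to 0.930 times in the other group. The proportions overlapped between the groups for both chains. Summed over the 3 chains, the controls held 112, 206 and 172 FPKM and the Δli-labelled livers 97.7, 101 and 111 FPKM.

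Sequence upstream of the markers is printed for 4 of them: *C1qb* and *Vsig4*, which were called lower once control replicate 1 was left out, and *Cd5l* and *Timd4*, whose means were not lower. Of the 10 markers, 8 had a promoter entry in RefSeq (GRCm38.p6, the assembly of mm10), and the 250 bases before the RefSeq gene start were read on the gene's strand, 5′ to 3′. Capitals mark GAGGAA or its reverse complement TTCCTC, a form of site bound by PU.1 (the *Spi1* product, a factor macrophages need). It holds GGAA, the shorter core of ETS factors, which was not searched for on its own. The windows are chr4:136886201-136886450 (minus strand) for *C1qb*, chrX:96293439-96293688 (minus) for *Vsig4*, chr3:87357631-87357880 (plus) for *Cd5l* and chr11:46810549-46810798 (plus) for *Timd4*.
C1qb: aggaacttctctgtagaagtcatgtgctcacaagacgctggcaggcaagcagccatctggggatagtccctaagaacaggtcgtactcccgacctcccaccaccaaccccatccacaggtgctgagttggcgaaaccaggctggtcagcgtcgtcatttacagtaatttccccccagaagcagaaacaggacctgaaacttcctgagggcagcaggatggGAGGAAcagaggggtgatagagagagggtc
Vsig4: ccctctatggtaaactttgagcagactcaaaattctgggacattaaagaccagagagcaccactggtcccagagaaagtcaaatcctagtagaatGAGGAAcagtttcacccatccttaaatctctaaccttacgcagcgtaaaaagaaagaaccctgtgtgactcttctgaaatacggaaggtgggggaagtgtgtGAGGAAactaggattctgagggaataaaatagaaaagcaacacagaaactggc
Cd5l: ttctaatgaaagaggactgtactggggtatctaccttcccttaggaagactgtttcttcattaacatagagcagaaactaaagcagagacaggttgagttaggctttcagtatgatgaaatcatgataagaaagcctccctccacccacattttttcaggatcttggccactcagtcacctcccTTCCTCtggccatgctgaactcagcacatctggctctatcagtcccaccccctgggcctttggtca
Timd4: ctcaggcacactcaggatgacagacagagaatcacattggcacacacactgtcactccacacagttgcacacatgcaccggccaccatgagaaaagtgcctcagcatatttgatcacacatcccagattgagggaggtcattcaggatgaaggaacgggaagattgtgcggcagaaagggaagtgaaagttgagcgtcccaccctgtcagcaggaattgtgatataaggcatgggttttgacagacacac
GAGGAA or TTCCTC was found in 5 of the 8 windows (*Vsig4*, *Marco*, *Cd5l*, *C1qb* and *C1qc*), beside 23.3% of 32851 windows of the same length. *Vsig4* held these letters 2 times, *C1qb* at 30 bases before the start, *Cd5l* at 66 bases, and *Timd4* not at all in this window. The shorter GGAA does occur in the *Timd4* window. TGGGAA or TTCCCA, the core of the Notch factor RBPJ, was found in 2 of the 8 (*Clec4f* and *Marco*), beside 21.6% of all. AGGTCA or TGACCT, the core bound by nuclear receptors, was found in 3 of the 8 (*Clec4f*, *Timd4* and *C1qc*), beside 14% of all. GAGGAA and TGGGAA share their last 4 letters, and AGGTCA shares no run of that length with them.

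*Clec4f* encodes a C-type lectin made in mice almost only by Kupffer cells, and *Vsig4* encodes a receptor for complement C3 fragments on bacteria and debris. *Clec4f* (chr6:83644542-83656187) was at 21.0, 25.9 and 23.2 FPKM in the controls and at 17.1, 18.6 and 18.5 FPKM in the Δli-labelled livers. All livers of the second group were below all controls. The means were 23.3 ± 2.45 and 18.0 ± 0.852 FPKM, or 77.3% of control, and this marker had the smallest spread relative to its mean among the controls. Its log2 fold change of −0.37 (standard error 0.13, 95% interval −0.67 to −0.06) did not pass after adjustment (adjusted p = 0.0818, limma; exact permutation p = 0.1, the smallest possible). *Vsig4* (chrX:96247203-96293438) was at 9.34, 13.4 and 15.2 FPKM in the controls and at 7.62, 8.63 and 9.98 FPKM in the other group. Control replicate 1 lay among the Δli-labelled livers and the other controls above them. The means were 12.7 ± 3.01 and 8.75 ± 1.19 FPKM, 69.1% of control, with a log2 fold change of −0.51 (standard error 0.20, 95% interval −0.98 to −0.04; adjusted p = 0.110, limma; exact permutation p = 0.2).

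The scavenger receptors differed by less than their spread. *Marco*, a class A scavenger receptor for bacteria and particles (chr1:120474538-120505024), was at 43.5, 68.9 and 49.4 FPKM in the controls and at 54.9, 38.5 and 36.8 FPKM in the Δli-labelled livers. The groups overlapped, and replicate 1 of the second group was above 2 of the controls. Mean levels were 53.9 ± 13.3 and 43.4 ± 9.98 FPKM (log2 fold change −0.31, 95% interval −0.82 to 0.20; adjusted p = 0.337, limma; exact permutation p = 0.3). With 1 library left out the log2 fold change of *Marco* ran from −0.49 (without Δli-labelled replicate 1) to −0.12 (without control replicate 2), and it was −0.45 without control replicate 1. *Cd163*, the receptor for haptoglobin-haemoglobin complexes (chr6:124304656-124330527), was at 1.88, 4.80 and 3.11 FPKM in the controls and at 1.81, 2.39 and 2.48 FPKM in the other group. The groups overlapped, and *Cd163* had the widest spread of the markers among the controls, a coefficient of variation of 45.0% against 10.5% for *Clec4f*. Its means were 3.27 ± 1.47 and 2.23 ± 0.365 FPKM (log2 fold change −0.45, 95% interval −1.18 to 0.29; adjusted p = 0.336, limma; exact permutation p = 0.4). Its log2 fold change was −0.78 without control replicate 1 (adjusted p = 0.0786, limma) and −0.13 without control replicate 2 (adjusted p = 0.759).

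*Cd5l*, *Timd4* and *Adgre1* had group means that lay close together. *Cd5l* encodes a secreted scavenger-like protein of tissue macrophages, also known as AIM, and *Timd4* a receptor for phosphatidylserine on dying cells that marks the long-resident Kupffer cells. *Adgre1* encodes F4/80, the general surface marker of mouse tissue macrophages. *Cd5l* (chr3:87357881-87371073) was at 38.1, 71.0 and 43.8 FPKM in the controls and at 49.0, 51.7 and 59.4 FPKM in the Δli-labelled livers. The latter lay between the lowest and the highest control. The means were 51.0 ± 17.5 and 53.4 ± 5.38 FPKM (log2 fold change 0.11, standard error 0.23, 95% interval −0.42 to 0.64; adjusted p = 0.747, limma; exact permutation p = 0.8).

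*Timd4* (chr11:46810800-46844332) was at 2.21, 3.16 and 1.95 FPKM in the controls and at 1.95, 3.18 and 2.73 FPKM in the Δli-labelled livers. Both groups covered nearly the same range. The means were 2.44 ± 0.638 and 2.62 ± 0.621 FPKM (log2 fold change 0.10, standard error 0.25, 95% interval −0.47 to 0.67; adjusted p = 0.791, limma; exact permutation p = 0.7). *Adgre1* (chr17:57358691-57483527) was at 3.33, 3.81 and 5.07 FPKM in the controls and at 3.71, 3.62 and 4.31 FPKM in the other group. The second group lay within the range of the controls. The *Adgre1* means were 4.07 ± 0.896 and 3.88 ± 0.375 FPKM (log2 fold change −0.05, standard error 0.19, 95% interval −0.48 to 0.38; adjusted p = 0.868, limma; exact permutation p = 0.8). The lower ends of these 95% intervals lie between −0.48 and −0.42, so the value measured for *Clec4f* (−0.37) lies inside all 3 of them. The signs of the log2 fold changes of *Cd5l*, *Timd4* and *Adgre1* each turned when 1 library was left out.

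By level, the markers fell into an abundant set and a scarce one. In the controls *C1qa*, *Marco*, *C1qc*, *C1qb* and *Cd5l* had means between 51.0 and 60.1 FPKM, and these neighbours did not differ beyond their spread. *Clec4f* at 23.3 FPKM lay below every control value of those genes, and *Vsig4* at 12.7 FPKM below every control value of *Clec4f*. *Adgre1*, *Cd163* and *Timd4* followed at 4.07, 3.27 and 2.44 FPKM; *Cd163* overlapped both of its neighbours, whereas every control value of *Adgre1* was above those of *Timd4*. Among the genes tested, the mean level of the abundant markers lay between the percentiles 84.2 and 87.1, and *Timd4*, *Cd163* and *Adgre1* lay between 23.5 and 32.6. In the Δli-labelled livers *Cd5l* moved from place 5 to place 1, ahead of *Marco*, whose values it overlapped, and of *C1qa*, whose values it did not. *Clec4f* and *Vsig4* kept places 6 and 7 in both groups.

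Among the 6 libraries, the spread of the markers was mostly a spread among the controls. The summed FPKM of the 10 markers was 231, 397 and 314 in the controls and 234, 228 and 245 in the Δli-labelled livers, so that control replicate 1 was at the level of the other group. The means were 314 ± 83.0 and 236 ± 8.82 FPKM. Control replicate 2 held the highest control value in 8 of the 10 markers and the highest of all 6 libraries in 7. In the Δli-labelled livers, replicate 1 held the lowest value of its group in 7 markers and replicate 3 the highest in 6.

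Leaving out control replicate 1 raised the number of markers called lower from 1 to 4, beside 6.80% of all genes tested. The calls were *C1qa* and *C1qc* (log2 fold change −0.89 each; adjusted p = 0.0162 and 0.0163, limma), *C1qb* (−0.81; adjusted p = 0.0263) and *Vsig4* (−0.71; adjusted p = 0.0357). Leaving out any other library lowered the number to 0. Control replicate 1 was also the lowest control in 13 of 18 general macrophage genes, 10 of 16 other Kupffer-enriched genes, 6 of 10 sinusoidal endothelial genes and 5 of 5 neutrophil genes, and in 0 of 8 hepatocyte genes. The part of these other genes in its marker levels was not tested.

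**Figure D2:**
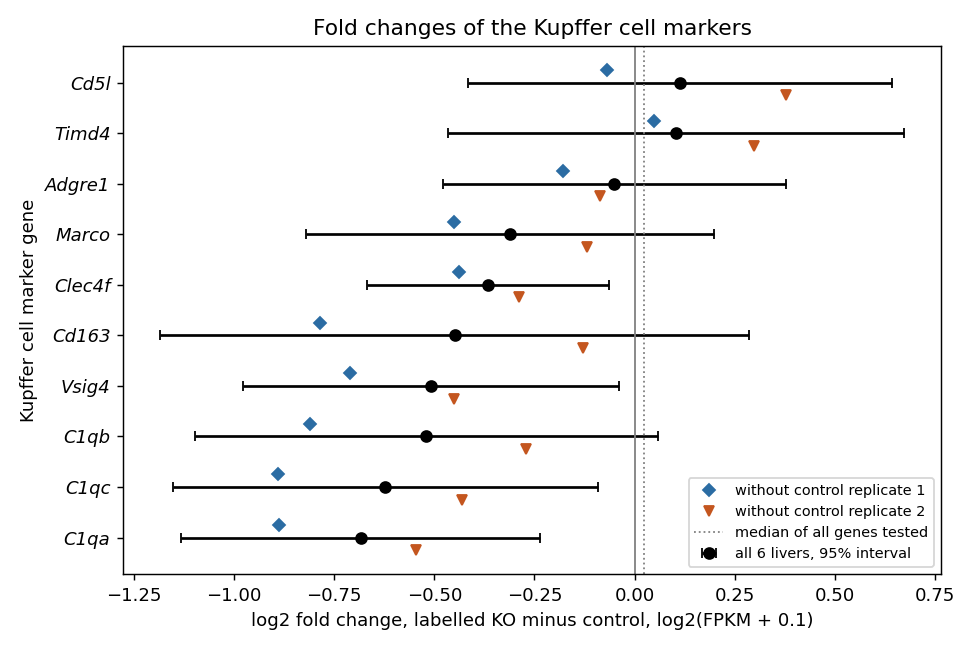
Log2 fold change of each Kupffer cell marker, Δli-labelled livers minus controls on log2(FPKM + 0.1), with its 95% interval from limma. The values without control replicate 1 and without control replicate 2 are also drawn, and those without the other libraries are not. *C1qa* at −0.68 is the only marker called with all libraries, and *Cd5l*, *Timd4* and *Adgre1* lie at either side of 0.

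*Csf1r*, the receptor that Kupffer cells and other macrophages need for survival, allows the markers to be read per macrophage transcript in the same liver. This reference gene was chosen after its values were seen, so the ratios are a description with no test. *Csf1r* was at 8.44, 13.3 and 11.6 FPKM in the controls and at 8.39, 10.1 and 9.02 FPKM in the Δli-labelled livers (log2 fold change −0.25, adjusted p = 0.351, limma). Like the markers, it was lowest among the controls in replicate 1, and its log2 fold change was −0.44 without that library (adjusted p = 0.0918) and −0.11 without control replicate 2. Divided by *Csf1r*, *C1qa* was 5.25, 5.37 and 5.56 in the controls and 4.05, 3.50 and 4.53 in the other group, and its coefficient of variation among the controls was 2.95%, beside 23.4% in FPKM. In proportion this was the largest drop of the 10 markers. In *Adgre1* the coefficient was 22.0% in FPKM and 20.7% in the ratio, in *Timd4* 26.2% and 22.0%, and in *Clec4f* it was higher in the ratio (10.5% and 13.9%). In each of the other 6 markers it was lower in the ratio than in FPKM, as in *C1qc* (30.5% in FPKM and 9.76% in the ratio) and *Cd5l* (34.4% and 17.3%). *C1qc* was 4.07, 4.91 and 4.77 times *Csf1r* in the controls and 3.76, 3.00 and 3.92 times in the Δli-labelled livers. *C1qb* was 3.89, 5.23 and 4.47 times *Csf1r* against 3.84, 3.53 and 3.86 times. On this scale the groups of all 3 C1q chains did not overlap, by a narrow margin for *C1qb* (3.89 against 3.86), and those of the other 7 markers did. That makes 3 of 10 markers lower without overlap, beside 6.58% of all genes tested when divided in the same way. In FPKM the share over all genes was 20.4%, so the division itself changed it. Whether 6.58% is a fair background for macrophage genes was not tested. The 3 markers are neighbouring genes for the chains of 1 molecule, so they are not 3 separate observations.

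The ratio left the other markers in a different place. *Clec4f* was 2.49, 1.95 and 1.99 times *Csf1r* in the controls and 2.03, 1.84 and 2.05 times in the Δli-labelled livers, so its separation in FPKM was not kept. *Cd5l* was 4.52, 5.34 and 3.77 times *Csf1r* against 5.85, 5.11 and 6.58 times. *C1qa* and *Cd5l* are the markers with the most negative and the most positive fold change, and their ratio was 1.16, 1.01 and 1.48 in the controls and 0.692, 0.685 and 0.689 in the other group. The controls thus held more *C1qa* than *Cd5l* transcript per length, and the Δli-labelled livers less. Against *Adgre1*, *C1qa* was 13.3, 18.7 and 12.8 in the controls and 9.16, 9.78 and 9.49 in the other group. Both pairs were picked after their values were seen.

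**Figure D3:**
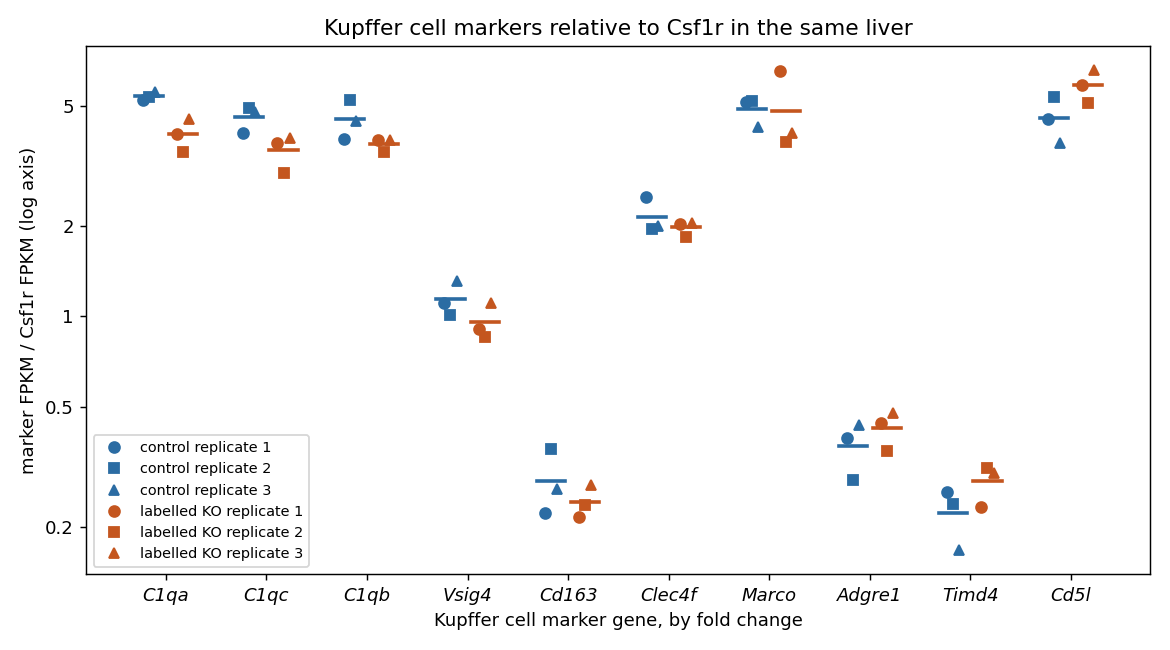
FPKM of each Kupffer cell marker divided by the FPKM of *Csf1r* in the same liver (log axis), with 1 point per liver, shaped by replicate number, and a bar at the group mean. The groups of *C1qa*, *C1qb* and *C1qc* are separate, those of the other 7 markers overlap, and the 3 control ratios of *C1qa* lie between 5.25 and 5.56.

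Of 24 genes for niche ligands, receptors and regulators of Kupffer cells, 3 were called higher and 5 lower and 16 did not pass, beside 11.6% higher and 9.48% lower of all genes tested. Their median log2 fold change was −0.14, and the number called higher was 1 without Δli-labelled replicate 1 or 2. *Il34*, a ligand of the CSF1 receptor, rose from 3.25, 2.91 and 3.71 FPKM to 6.03, 6.08 and 8.73 FPKM (log2 fold change 1.04, adjusted p = 0.0108, limma). The groups did not overlap. The other ligand, *Csf1*, was at 4.49, 4.00 and 3.81 FPKM in the controls and at 5.43, 5.50 and 3.75 FPKM in the Δli-labelled livers (log2 fold change 0.23, adjusted p = 0.386). With 1 library left out the log2 fold change of *Csf1* ran from 0.14 (without Δli-labelled replicate 2) to 0.41 (without Δli-labelled replicate 3), uncalled each time.

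The genes called lower on this list included a BMP ligand and Notch ligands, while other genes of both routes did not pass. *Gdf2*, which encodes BMP9, fell from 4.97, 6.67 and 6.89 FPKM to 2.75, 3.15 and 2.74 FPKM (log2 fold change −1.06, adjusted p = 0.00737, limma). *Dll4*, a Notch ligand of sinusoidal endothelium, fell from 1.81, 2.38 and 2.75 FPKM to 0.817, 0.769 and 0.644 FPKM (log2 fold change −1.50, adjusted p = 0.00614). *Id3*, a BMP target and a regulator of Kupffer cell identity that endothelial cells also express, fell by 1.46 on the log2 scale (adjusted p = 0.00179). All 3 were lower in each liver of the second group than in any control. *Bmp10*, whose product shares its receptor with that of *Gdf2*, differed by −0.085 on the log2 scale, within its spread (limma adjusted p = 0.896). The receptors *Acvrl1* (−0.40), *Notch1* (−0.02) and *Notch2* (0.14) and the Notch factor gene *Rbpj* (0.25) did not pass either. Other calls on this list, named because they are few, included *Dll1* and *Eng* lower and *Smad4* higher.

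Transcription factors closest to the Kupffer program itself did not pass. *Nr1h3*, which encodes LXRα, a factor Kupffer cells need and which acts on *Cd5l*, was at 60.3, 71.3 and 39.9 FPKM in the controls and at 42.5, 43.5 and 40.7 FPKM in the Δli-labelled livers (log2 fold change −0.40, adjusted p = 0.202, limma). Hepatocytes express it too. Control replicate 3 was the lowest of all 6 libraries, and without it the log2 fold change was −0.64 with an adjusted p of 0.0162. The other 14 alternatives left *Nr1h3* uncalled, and without control replicate 2 its log2 fold change was −0.22 (adjusted p = 0.452, limma). *Spic*, a factor of macrophages that handle iron from red cells, was at 1.04, 1.97 and 1.61 FPKM in the controls and at 1.45, 1.44 and 1.25 FPKM in the other group (log2 fold change −0.11, adjusted p = 0.788).

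Among 19 other genes enriched in Kupffer cells, 16 passed the filter, 5 were called lower and 0 higher, with a median log2 fold change of −0.33. These were *Id1* (−2.86), *Id3* (−1.46), *Clec1b* (−1.28), *Cdh5* (−0.78) and *Mrc1* (−0.67), and endothelial cells of the liver also express them. The calls of *Cdh5* and *Mrc1* were lost under 3 and 4 of the 15 alternatives. The list summed to between 649 and 819 FPKM in the controls and between 340 and 390 FPKM in the Δli-labelled livers, and *Id1* and *Id3* carried most of this difference: the other 17 genes summed to between 228 and 282 FPKM and between 207 and 228 FPKM. Of 18 general macrophage genes, *Lgmn*, a lysosomal protease, was called lower (log2 fold change −1.05, adjusted p = 0.00509, limma) and 0 were called higher, with a median of −0.18. Their sum was 467 to 551 FPKM in the controls and 426 to 460 FPKM in the other group.

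Partners of the markers were also examined by function. Of 12 complement genes that act with C1q, *Cd93*, a surface protein once described as a C1q receptor (−0.73), and *C2* (−0.52) were called lower, 0 higher, and the median was −0.17. Their calls were lost under 7 and 9 of the 15 alternatives. Of 14 tested receptors and bridges for dying cells, the class to which *Timd4* belongs, 3 were called higher, *Tyro3* (2.14), *Mfge8* (1.85) and *Gas6* (1.32), and 4 lower, led by *Itgb3* (−1.14), whose call was lost under 1 alternative. *Gas6* and *Mfge8* are secreted bridges between dying cells and phagocytes. Of 15 scavenger and pattern receptors, 3 were called lower, *Fcgr2b* (−1.02), *Scarf1* (−0.95) and *Mrc1*, and *Clec7a*, the receptor for β-glucan, was higher (0.59), with a median of −0.31; the call of *Clec7a* was lost under 9 alternatives. Of 10 genes that handle haemoglobin and iron, to which *Cd163* is linked, *Hmox1*, the haem-degrading enzyme (0.59, adjusted p = 0.0150), and *Lrp1* (0.55, adjusted p = 0.0265, limma) were called higher and 0 lower. These calls were lost under 2 and 4 alternatives.

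Genes of other cell types moved beside the Kupffer cell markers. Of 10 sinusoidal endothelial genes, 9 were called lower, 6 of them over 2-fold, with a median log2 fold change of −1.03 and with *Clec4g* (−1.27), *Gpr182* (−1.06), *Lyve1* (−1.05) and *Stab2* (−1.05) in front; the call of *Lyve1* was lost under 4 alternatives. Their sum was 139 to 186 FPKM in the controls and 71.8 to 80.3 FPKM in the Δli-labelled livers. Of 9 genes of lipid-associated macrophages, *Gpnmb* (2.33, adjusted p = 0.0208) and *Lgals3* (1.81, adjusted p = 0.00899, limma) were called higher and 0 lower, with a median of 0.03 and with 4 of the 9 at a negative log2 fold change. The call of *Gpnmb* was lost when any 1 Δli-labelled library was left out (adjusted p 0.0656 to 0.0685, limma). The list summed to 420 to 750 FPKM in the controls and 907 to 983 FPKM in the other group, but without *Lgals3* and *Cd63* the sums were 198 to 278 and 179 to 246 FPKM. Of 12 listed monocyte genes, 9 were tested and 0 were called in either direction by limma (1 was higher at an unadjusted p under 0.05), with a median of 0.03. All 12, tested or not, summed to 34.0 to 40.8 FPKM in the controls and 29.8 to 45.4 FPKM in the other group. No gene of these lists was at 0 in all libraries. Their part in the levels of the Kupffer cell markers was not tested.

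The remaining lists gave few calls. Of 8 hepatocyte genes 0 were called by limma (2 were lower at an unadjusted p under 0.05), with a median of −0.34, close to that of the Kupffer cell markers, and sums of 45731 to 59919 FPKM in the controls and 39368 to 47031 FPKM in the Δli-labelled livers. Of 10 stellate cell genes *Des*, which encodes desmin, was called lower (−0.56, adjusted p = 0.0497, limma; lost under 9 alternatives), with a median of −0.28 and sums of 59.3 to 71.1 and 49.9 to 63.1 FPKM. Of 5 neutrophil and 5 cholangiocyte genes tested 0 were called by limma (3 and 0 were lower at an unadjusted p under 0.05), with medians of −0.60 and −0.06. Summed over all genes found, tested or not, the 11 neutrophil genes held 43.8 to 137 FPKM in the controls and 41.6 to 101 FPKM in the other group. The 6 cholangiocyte genes summed to 62.9 to 108 and 61.2 to 99.3 FPKM. No lymphocyte gene passed the filter, and the list summed to at most 2.55 FPKM in any library.

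**Figure D4:**
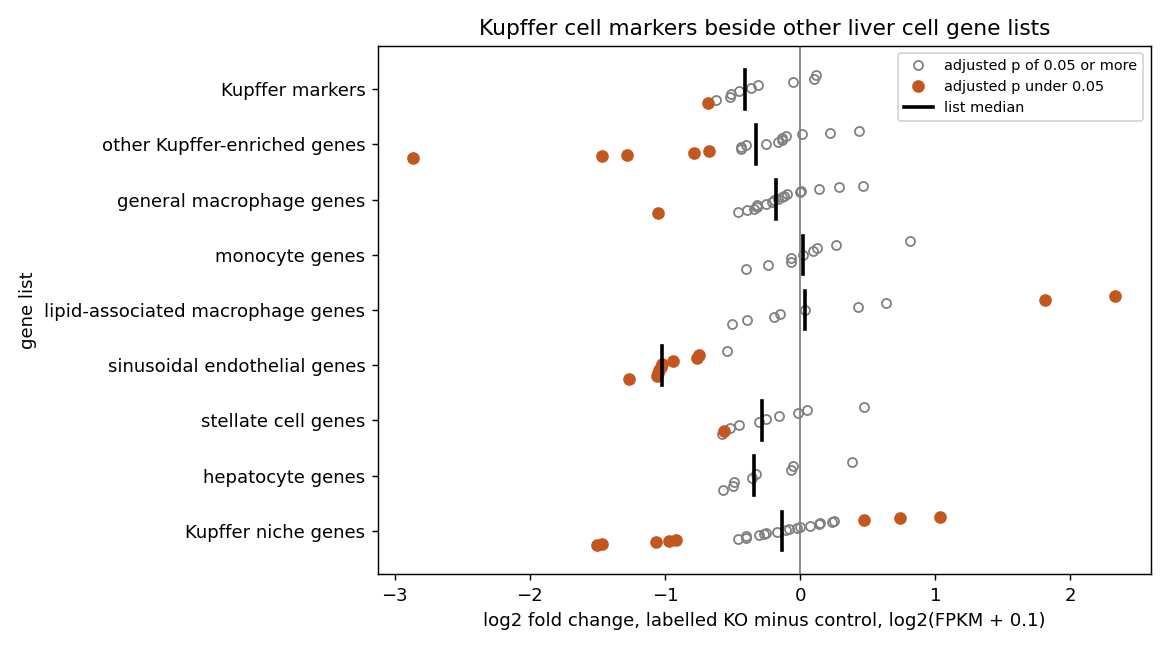
Log2 fold change of each tested gene in the Kupffer cell markers and 8 other gene lists, Δli-labelled livers minus controls on log2(FPKM + 0.1), with filled points for an adjusted p under 0.05 (limma) and a bar at the list's median. The Kupffer cell markers hold 1 filled point, at a median of −0.41, and the sinusoidal endothelial genes hold 9, at a median of −1.03.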

How the data were processed

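RNA-seq values of whole liver from 6 mice, 3 per group, were used, 1 library per mouse. After adapter trimming the authors mapped the read pairs with TopHat to mm10 of UCSC, and Cuffdiff gave the values; versions, annotation, strand setting and options are not given in the sources used here. The deposited table holds FPKM per gene and library. Its columns of group means, fold changes, test statistics, p-values and q-values from the authors' own comparison were not used, and 0 columns of library values were left unmapped. No ratio between 2 libraries was shared, within 0.5%, by more than 1.62% of the genes with values under 0.2 FPKM in both, so reads could not be recovered and no counting interval is given.

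The 11956 genes whose mean over the 6 libraries reached 0.5 FPKM were compared as log2(FPKM + 0.1) with limma 3.58.1 in R 4.3.3 (lmFit, and eBayes with its trend option), with p adjusted over all of them by Benjamini and Hochberg and a call at an adjusted p under 0.05. For genes with low values this scale gives too small a fold change. For each marker an exact two-sided permutation test was also run over the 20 splits of 3 against 3. The fit was tested on simulated data. As 15 alternatives, the pseudocount was set to 1 or 0.01, the filter was dropped or raised to 1 FPKM, libraries were centred on their median or quantile normalized, eBayes was run without trend or as robust, the replicate number was used as a block, and each library was left out.

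The markers and the 15 other gene lists were chosen with earlier results of these data known, and some genes stand in more than 1 list. The values of 1 listed gene are not reported here. Named were all 10 markers, *Med23*, *Csf1*, *Il34*, *Csf1r*, *Nr1h3*, *Spic* and, of each other list, up to 4 called genes with the largest change or, with none called, the 2 most abundant; *Mrc1* among the Kupffer-enriched genes, *Cd63*, *Dll1*, *Eng*, *Smad4*, *Bmp10*, *Acvrl1*, *Notch1*, *Notch2* and *Rbpj* were named after their values were seen, as were the ratios and their pairs. Positions are from GENCODE mouse release M 21 (mm10) and upstream sequences from RefSeq. Python 3.11.15 and matplotlib 3.10.9 were used for sequences and figures.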

Additional observations from a re-analysis of the deposited data

How the results depend on the processing

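Of 150 values for the Kupffer cell markers under the alternatives, 135 kept their direction and their side of the threshold. The number of markers called lower was 1 with all libraries and 0 with no filter, with eBayes without a trend and with the replicate block, and it ran from 0 to 4 with each library left out, 4 without control replicate 1. For *C1qa* the adjusted p was 0.0687, 0.0581 and 0.0510 with no filter, without a trend and with the replicate block (limma). Signs of markers turned only with a library left out, where the log2 fold change of *Cd5l* ran from −0.068 (without control replicate 1) to 0.38, of *Timd4* from −0.046 (without Δli-labelled replicate 2; −0.038 without control replicate 3) to 0.30 and of *Adgre1* from −0.18 to 0.12 (without control replicate 3). Of 600 values for the other named genes, 529 kept direction and call and 15 changed sign. With a library left out these ran from −0.22 to 0.017 for *Med23*, −0.35 to 0.082 for *Spic*, −0.22 to 0.14 for *Plac8*, −0.16 to 0.32 for *S100a4*, −0.70 to 0.082 for *S100a8*, −0.69 to 0.31 for *S100a9*, −0.47 to 0.064 for *Spp1* and −0.0027 to 0.54 for *Sox9*. *Alb* was at 0.25 and *Trf* at 0.058 after quantile normalization. The causes were not tested. Genes of the sinusoidal endothelial list called lower ran from 7 to 10, of the other Kupffer-enriched list from 3 to 7, and niche genes called higher from 1 to 3 and lower from 4 to 6. The low of 7 came without Δli-labelled replicate 1, the low of 3 without any 1 of the Δli-labelled replicates, and the low of 1 without Δli-labelled replicate 1 or 2. Of the other genes named, *Cdh5* (adjusted p 0.0504 to 0.0554, limma), *Gpnmb*, *Lrp1* and *Mrc1* lost their call without any 1 Δli-labelled library, *Lrp1* and *Mrc1* also with the replicate block (0.0687 and 0.0597), *Hmox1* without Δli-labelled replicate 1 or 2 (0.0814 and 0.0688), *Itgb3* without replicate 1 (0.0564), and *Lyve1* without control replicate 2, without Δli-labelled replicate 1 or 3 and with no filter (0.0539 to 0.0916).

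The replicate numbers are shared between the groups but nothing ties them to a litter or day, and the deviations of same-numbered livers had correlations of −0.02, −0.05 and −0.12 over genes. With the replicate block, 809 genes were called higher and 614 lower, beside 1384 and 1133 without it, and with 1 library left out the counts fell to as low as 401 and 349 (without Δli-labelled replicate 1). Counting depth is unknown in FPKM, and the spread among 3 livers limits what could be detected.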
